A study of Mus musculus with 40 samples.

Results

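Punches of the ventral tegmental area differed widely in how much RNA of dopamine neurons they held, and this account sets the dopamine-rich punches against the dopamine-poor ones. A library was called dopamine-rich when Th, the gene of tyrosine hydroxylase, reached 200 CPM (counts divided by the library's total count and scaled to 1000000), and dopamine-poor when Th stayed below 50 CPM. By this rule 12 of the 40 libraries were rich and 21 were poor, and 7 libraries between the limits stayed out of both classes. The study measured messenger RNA by sequencing in adult mice of 2 strains, labelled DBA and C57/Bl6, and of both sexes. In the treated litters, pups had been moved to a new adoptive mother daily from postnatal day 1 to day 4, a procedure called repeated cross fostering (RCF). The controls were unhandled. The 8 groups of strain, treatment and sex held 5 libraries each. Frozen brains were punched at the ventral tegmental area, and the labels do not tie libraries to litters or animals, so p-values measure the spread between libraries, which may be technical.

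The rich libraries comprised 8 from RCF mice and 4 from controls, 2 from DBA mice and 10 from C57 mice, and 7 from females and 5 from males. The poor libraries comprised 10 from RCF mice and 11 from controls, 13 from DBA mice and 8 from C57 mice, and 10 from females and 11 from males. Total counts ran from 21208208 to 24985895 in rich libraries and from 20687263 to 28179071 in poor libraries. Th ranged from 298.2 to 1603 CPM in rich libraries, with a median of 902 CPM, and from 0.655 to 41.6 CPM in poor libraries, with a median of 16.8 CPM. The libraries between the limits lay between 53.2 and 178 CPM, so the nearest values on the far side of the limits were 178 CPM below the rich limit and 53.2 CPM above the poor one. Since Th chose the libraries, these levels are a description and Th was given no test. In whole-tissue RNA, fewer dopamine neurons in a punch and less RNA per neuron cannot be told apart. Genes of the same neurons are bound to go with Th, so their p-values measure how cleanly they separate the libraries.

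Several libraries stood apart from the rest before any comparison. Slc17a7, a vesicular glutamate transporter counted here among the forebrain genes, lay between 480 and 1226 CPM in 4 libraries, all of them poor, and at 97.3 CPM or less in the other 36. These were the libraries labelled C57 RCF female replicate 4, DBA control female replicate 3, and C57 control male replicates 1 and 5. In C57 RCF female replicate 4 Slc17a7 was at 973 CPM, the whole forebrain list summed to 1332 CPM and the hindbrain list to 247.3 CPM. The forebrain list summed to 6090 CPM in DBA control female replicate 3, and to 5773 and 3229 CPM in C57 control male replicates 1 and 5. The library labelled C57 control male replicate 5 also went against its strain label in part. Its 60 genes that were at least 8-fold higher in DBA stood at 0.285 of the DBA median, against 0.0256 to 0.0417 in the other 19 C57 libraries. Its 34 genes that were at least 8-fold higher in C57 stood at 0.592 of the C57 median, against 0.740 to 1.21 in those 19 libraries. Levels of Xist and Ddx3y matched the labelled sex in all 40 libraries.

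Dopamine neurons of the ventral midbrain make dopamine from tyrosine through tyrosine hydroxylase (Th) and aromatic amino acid decarboxylase (Ddc), with a cofactor whose synthesis starts with Gch1. Slc18a2 loads dopamine into vesicles and Slc6a3, the dopamine transporter, takes it back up after release. The neurons arise near the boundary of midbrain and hindbrain under factors such as En1, Lmx1b, Foxa2, Nr4a2 and Pitx3, several of which remain active in the adult. The ventral tegmental area borders the hypothalamus in front and the raphe nuclei, which hold serotonin neurons, behind.

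Promoter sequences of 4 of the genes that separated the classes are shown because their levels moved together. They are the RefSeq promoter windows of build GRCm38.p6, from 250 bases before to 50 bases after the annotated start. The windows lie at chr13:73536497-73536796 on the plus strand for Slc6a3, and on the minus strand at chr11:11898095-11898394 for Ddc, chr14:47189364-47189663 for Gch1 and chr19:46148276-46148575 for Pitx3. Capitals mark a match to AAAGGTCA, the element bound by NR4A factors, or its reverse complement.
Slc6a3: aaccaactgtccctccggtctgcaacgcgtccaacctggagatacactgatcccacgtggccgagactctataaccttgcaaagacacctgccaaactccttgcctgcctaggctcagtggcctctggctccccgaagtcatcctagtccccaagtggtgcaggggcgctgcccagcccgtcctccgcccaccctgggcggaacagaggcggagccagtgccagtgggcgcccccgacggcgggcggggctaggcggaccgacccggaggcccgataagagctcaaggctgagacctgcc
Ddc: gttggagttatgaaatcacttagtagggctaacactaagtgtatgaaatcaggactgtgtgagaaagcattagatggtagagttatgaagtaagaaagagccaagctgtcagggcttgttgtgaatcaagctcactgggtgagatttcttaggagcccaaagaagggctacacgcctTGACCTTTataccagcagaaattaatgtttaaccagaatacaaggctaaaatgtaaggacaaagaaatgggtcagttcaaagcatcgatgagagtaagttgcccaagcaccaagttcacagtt
Gch1: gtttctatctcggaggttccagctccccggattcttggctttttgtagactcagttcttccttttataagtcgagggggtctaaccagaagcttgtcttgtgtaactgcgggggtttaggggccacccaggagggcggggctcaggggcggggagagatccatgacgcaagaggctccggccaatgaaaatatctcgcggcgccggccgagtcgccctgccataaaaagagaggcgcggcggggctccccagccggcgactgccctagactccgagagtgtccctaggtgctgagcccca
Pitx3: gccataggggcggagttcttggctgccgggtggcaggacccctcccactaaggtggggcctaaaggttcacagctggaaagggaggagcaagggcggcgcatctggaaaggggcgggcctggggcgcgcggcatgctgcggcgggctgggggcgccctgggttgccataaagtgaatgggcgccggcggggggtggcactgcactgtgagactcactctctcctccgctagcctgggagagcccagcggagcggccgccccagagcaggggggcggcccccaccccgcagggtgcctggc
The letters AAAGGTCA were found on either strand in 1.51% of the 32851 promoter windows of the reference. The 62 genes whose levels in every rich library exceeded those in every poor library had 56 windows for 42 genes, and 1 of these windows, that of Ddc, held the letters. A second motif, TAATCC, the core bound by PITX3 and related homeodomain factors, was found in 7.06% of all windows and in 3 of the 56, those of Ano2, Grip2 and Shroom3.

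The share of rich libraries differed between strains more than between treatments or sexes. Of the libraries in either class, 2 of 15 from DBA mice (13.3%) and 10 of 18 from C57 mice (55.6%) were rich (two-sided Fisher's exact test, p = 0.0272, and 0.0817 when adjusted over the 3 labels). With limits of 400 and 25 CPM the shares were 2 of 9 in DBA and 9 of 14 in C57 (Fisher's exact p = 0.0894). A single limit of 100 CPM gave 4 of 20 in DBA and 12 of 20 in C57 (Fisher's exact p = 0.0225, unadjusted). Among RCF mice 8 of 18 libraries were rich (44.4%), against 4 of 15 among controls (26.7%), which did not pass the exact test (p = 0.469). Within C57 mice the counts were 7 of 10 for RCF and 3 of 8 for controls (exact p = 0.342), and within DBA mice 1 of 8 and 1 of 7 (exact p = 1). Females gave 7 of 17 rich libraries (41.2%) and males 5 of 16 (31.3%; exact p = 0.721). Strain, treatment and sex were terms of the main fit.

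**Figure D1:**
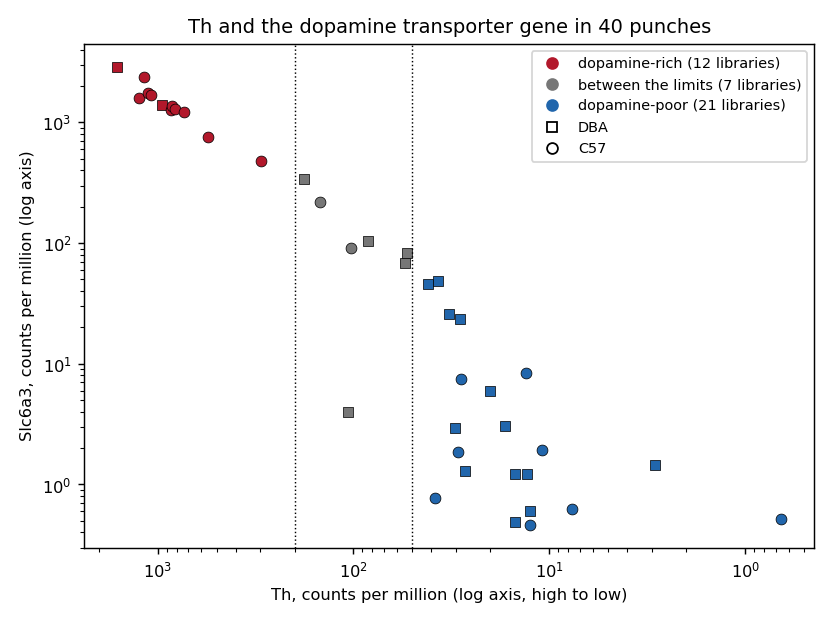
Th (horizontal, CPM, log axis running from high to low) and Slc6a3 (vertical, CPM, log axis) in each of the 40 libraries, with squares for DBA, circles for C57, and dotted lines at the limits of 200 and 50 CPM. The 12 rich libraries lie at 479 CPM of Slc6a3 or more, and 1 library between the limits, DBA control male replicate 4, has 107 CPM of Th with 3.96 CPM of Slc6a3.

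Apart from Th, 16957 genes passed the filter on low counts. In rich libraries 1005 of them were higher (5.93% of those tested) and 1109 were lower (6.54%) at an adjusted p below 0.05 (edgeR quasi-likelihood F test, Benjamini-Hochberg adjustment, 28 residual degrees of freedom). Adjusted p values given without a tool's name come from that fit. Counts of called members in the gene lists below are to be read beside the shares of 5.93% and 6.54%. The higher genes had a median log2 fold change of 0.45, and 236 of them were at least doubled, while 158 of the lower genes were at most halved. A change of 4 or more on the log2 scale was reached by 23 higher genes and 2 lower ones. In 62 genes (0.366%) every rich library exceeded every poor library, and in 5 genes (0.0295%) every rich library lay below every poor one. Without the library labelled C57 control male replicate 5 the counts were 1053 higher and 1114 lower. Without the 4 libraries high in Slc17a7 they were 1906 and 1990, and without DBA control male replicate 3, the library richest in Th, they were 643 and 604. Leaving out C57 RCF female replicate 4 alone gave 1408 and 1422.

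The genes that make, store and take up dopamine were far apart between the classes. Slc6a3, which takes dopamine back into the neuron, had 479, 1374 and 2885 CPM as the lowest, median and highest value in rich libraries, against 0.460, 1.85 and 48.9 CPM in poor libraries. The groups did not overlap, and the log2 fold change was 8.48 ± 0.71 (SE; adjusted p = 2.66e-10). Slc18a2, the vesicular monoamine transporter, had 199.6, 577 and 1275 CPM in rich libraries, against 3.25, 23.2 and 45.8 CPM in poor libraries (log2 fold change 4.84 ± 0.30, adjusted p = 2.15e-13). Ddc, which forms dopamine from L-DOPA, had 182, 518 and 1159 CPM in rich libraries, against 13.0, 23.4 and 48.3 CPM in poor libraries (4.60 ± 0.21, adjusted p = 2.94e-16). Gch1, the first enzyme of tetrahydrobiopterin synthesis, had 15.8, 40.3 and 104 CPM in rich libraries, against 0.931, 1.91 and 4.70 CPM in poor libraries (4.60 ± 0.23, adjusted p = 3.12e-15). None of these 3 overlapped between the classes either. The other 4 members of the list, the later enzymes that make and recycle that cofactor, did not pass the test, with log2 fold changes from -0.12 to 0.29. Thus 4 of the 8 members besides Th rose and none fell, with a median log2 fold change of 2.44, against -0.018 over all genes tested.

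Enzymes that break down dopamine moved less. Aldh1a1, the aldehyde dehydrogenase of a ventral subset of dopamine neurons, had 176, 839 and 1189 CPM in rich libraries, against 59.5, 117 and 229 CPM in poor libraries (log2 fold change 2.62 ± 0.23, adjusted p = 4.10e-10). The highest poor library overlapped the lowest rich one. Akr1b3, an aldose reductase, had 24.97, 30.2 and 34.4 CPM in rich libraries, against 14.6, 19.5 and 23.1 CPM in poor libraries, with no overlap (0.64 ± 0.06, adjusted p = 3.41e-09). Maoa, the monoamine oxidase of catecholamine neurons, rose by 0.48 ± 0.07 on the log2 scale (adjusted p = 3.09e-05). Of the 6 genes in this group 3 rose and 1 fell.

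Per kilobase of annotated exon, the median level of Slc6a3 in rich libraries was 397.5 CPM, that of Ddc 116 CPM and that of Slc18a2 110.4 CPM. Gch1 reached 6.44 CPM per kilobase on the same scale, so the cofactor enzyme was the least abundant of the 4.

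**Figure D2:**
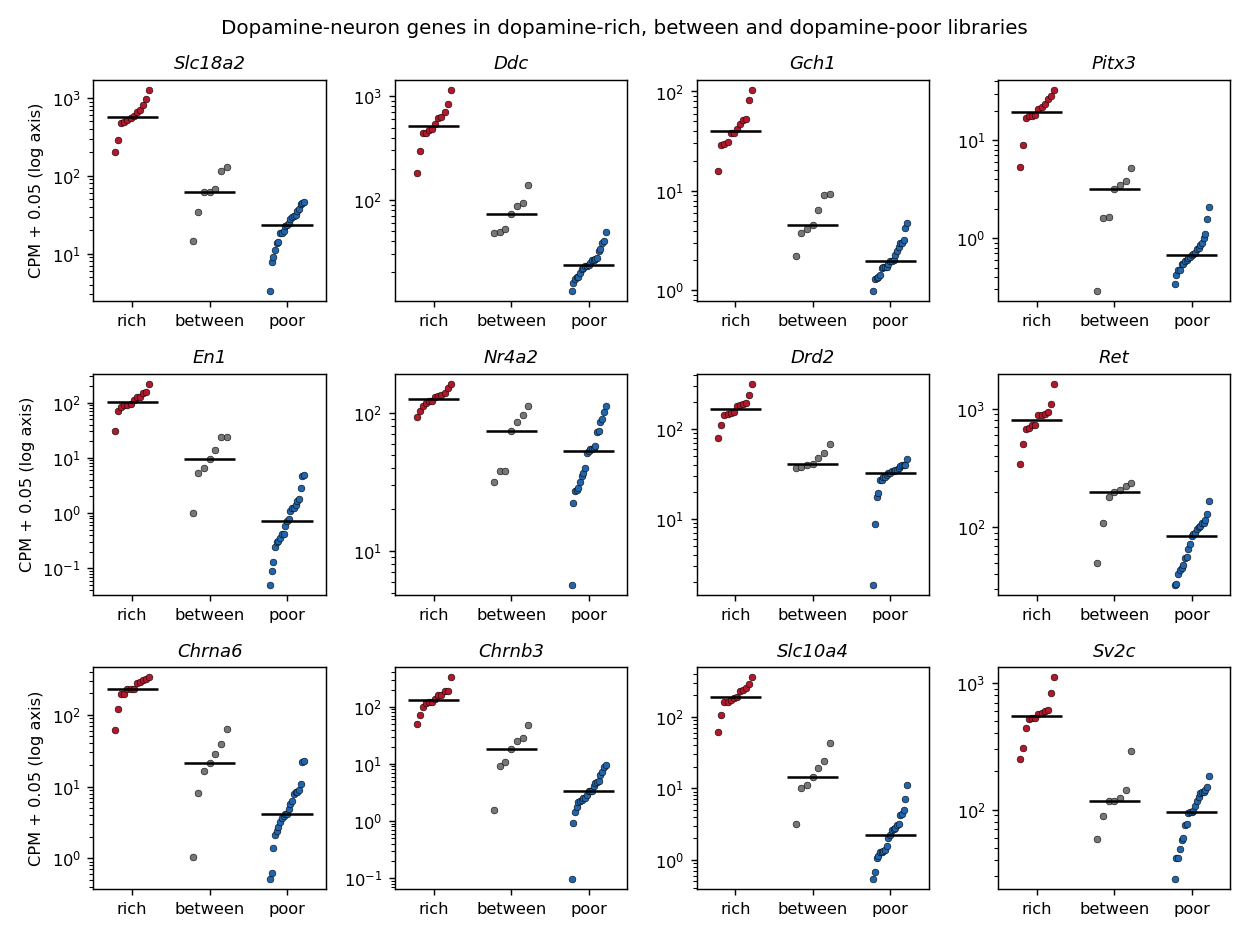
Level of 12 dopamine-neuron genes (CPM plus 0.05, log axis) in rich (12), between (7) and poor (21) libraries, 1 point per library and a line at the median. Apart from Nr4a2, whose classes overlap, every rich library lies above every poor one in these panels, and the median of the libraries between the limits falls between the other medians.

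Transcription factors of dopamine neurons rose almost as a whole list, 12 of 14 passing the test and none falling (median log2 fold change 1.44, against -0.018 over all genes). En1, needed for these neurons to form and survive, had 30.2, 103 and 220.3 CPM in rich libraries, against 0, 0.680 and 4.90 CPM in poor libraries (6.94 ± 0.42, adjusted p = 1.58e-13). Its relative En2 had a log2 fold change of 3.80 ± 0.25 (adjusted p = 1.08e-12). Pitx3, which in mice is needed above all by neurons of the substantia nigra, had 5.31, 19.5 and 32.7 CPM in rich libraries, against 0.293, 0.627 and 2.01 CPM in poor libraries (5.09 ± 0.22). Its adjusted p of 4.16e-17 was the smallest of all genes tested. Bnc2, a zinc finger factor, and Foxa2, a factor of the floor plate, also separated the classes without overlap, rising by 4.94 ± 0.32 (adjusted p = 3.28e-13) and by 3.08 ± 0.46 (adjusted p = 1.70e-05). Foxa1 rose by 2.24 ± 0.31 (adjusted p = 4.80e-06). In DBA libraries alone Foxa2 gave 3.22 with an adjusted p of 0.0664.

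Nr4a2, the nuclear receptor that drives Th and Slc6a3, separated the classes far less than its known targets. It had 94.0, 127 and 163 CPM in rich libraries, against 5.62, 53.4 and 113 CPM in poor libraries, and the classes overlapped (1.30 ± 0.27, adjusted p = 0.00108). Lmx1b, Otx2, Satb1 and Sox6 also rose and also overlapped, by 1.56 ± 0.35, 1.19 ± 0.29, 0.88 ± 0.15 and 0.66 ± 0.09 on the log2 scale (adjusted p = 0.00265, 0.00567, 0.000165 and 7.65e-06). Lmx1a, a relative of Lmx1b, had medians of 22.1 CPM in rich and 18.2 CPM in poor libraries and did not pass the test (0.57 ± 0.39, adjusted p = 0.389). In C57 libraries alone Nr4a2, Lmx1b, Otx2 and Satb1 missed the threshold, with adjusted p between 0.0647 and 0.186 and log2 fold changes from 0.81 to 1.57, and Lmx1b also missed it in DBA libraries alone (adjusted p = 0.154). With limits of 400 and 25 CPM Nr4a2 gave 2.06. Otx2 also missed it when the mean levels of forebrain and hypothalamic genes were added as terms (0.95, adjusted p = 0.155).

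Receptors known from dopamine neurons were higher in rich libraries for 12 of 18 members, and none fell (median log2 fold change 1.82). The nicotinic acetylcholine receptor subunits led this list. Chrnb3 had 49.97, 130.2 and 327 CPM in rich libraries, against 0.0468, 3.29 and 9.49 CPM in poor libraries (5.44 ± 0.32, adjusted p = 1.06e-13). Chrna6 had 62.1, 227 and 332 CPM in rich libraries, against 0.468, 4.13 and 22.5 CPM in poor libraries (5.11 ± 0.37, adjusted p = 7.43e-12). The 2 genes are neighbours on chromosome 8 of GRCm38, Chrnb3 at 27368711 to 27399730 on the plus strand and Chrna6 at 27403212 to 27413944 on the minus strand. Chrna5, an accessory subunit, rose by 4.79 ± 0.33 and Chrna4 by 2.04 ± 0.18 (adjusted p = 2.01e-12 and 5.06e-10), again without overlap. Chrna3 and Chrnb2 rose by 1.69 ± 0.39 and 0.32 ± 0.08 (adjusted p = 0.00368 and 0.00475), and their classes overlapped. Chrna3 missed the threshold in DBA libraries alone (1.403, adjusted p = 0.506), and Chrnb2 in either strain alone (adjusted p = 0.0797 in DBA and 0.142 in C57).

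Ret, the signalling receptor for GDNF family factors, had 339, 806 and 1634 CPM in rich libraries, against 32.5, 84.5 and 167 CPM in poor libraries (3.66 ± 0.22, adjusted p = 1.06e-13). Its co-receptor Gfra1 rose by 1.46 ± 0.16 (adjusted p = 6.93e-08), and neither gene overlapped between the classes. Drd2, the autoreceptor through which dopamine slows its own neurons, had 78.7, 168 and 320.2 CPM in rich libraries, against 1.78, 32.6 and 45.7 CPM in poor libraries (2.80 ± 0.24, adjusted p = 4.02e-10). Some receptors for peptides on this list rose too, while others did not pass the test. Tacr3, for neurokinin B, rose by 2.88 ± 0.26, Ntsr1, for neurotensin, by 2.13 ± 0.27 and Oprk1, the kappa opioid receptor, by 1.95 ± 0.20 (adjusted p = 9.53e-10, 1.23e-06 and 1.07e-08). Drd5, a dopamine receptor of target neurons, was lower, at 0.854, 2.58 and 3.86 CPM in rich libraries, against 3.11, 4.22 and 13.9 CPM in poor libraries (-0.97 ± 0.25, adjusted p = 0.00848). It missed the threshold in either strain alone (adjusted p = 0.304 in DBA and 0.0536 in C57).

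Genes that mark subtypes of dopamine neurons rose for 12 of 20 members and fell for 1 (median log2 fold change 1.17). Gucy2c, the guanylate cyclase C receptor, had 19.5, 43.4 and 83.0 CPM in rich libraries, against 0.187, 1.12 and 3.84 CPM in poor libraries (5.04 ± 0.31, adjusted p = 2.11e-13). Aldh1a7 and Anxa1, markers of ventral nigral neurons, had fold changes of similar size but varied more among rich libraries. Aldh1a7 ranged from 1.36 to 32.7 CPM in rich libraries and from 0 to 2.05 CPM in poor libraries (4.84 ± 0.48, adjusted p = 9.29e-09). Anxa1 ranged from 0.966 to 45.8 CPM in rich libraries and from 0.139 to 3.27 CPM in poor libraries (4.59 ± 0.43, adjusted p = 2.49e-09). Ndnf, a secreted factor, and Sncg, gamma-synuclein, rose by 3.08 ± 0.22 and 1.82 ± 0.17 without overlap (adjusted p = 4.46e-12 and 1.49e-09), and Grp, gastrin-releasing peptide of medial neurons, rose by 2.08 ± 0.31 (adjusted p = 1.64e-05). The member that fell was Slc17a6, the vesicular glutamate transporter of midbrain and diencephalic neurons, with medians of 237 CPM in rich and 399 CPM in poor libraries (-0.71 ± 0.23, adjusted p = 0.0417). Leaving out 1 library ended that call in 16 of 33 cases, with an adjusted p of up to 0.168 without DBA control male replicate 3, and neither strain alone gave it (adjusted p = 0.153 in DBA and 0.385 in C57). It was also lost without a low-count filter, at limits of 400 and 25 CPM, with classes set by Slc6a3 and with continuous log2 Th. A term for each labelled group, forebrain and hypothalamic terms or a replicate block ended the call as well. Adjusted p over all these fits ran from 0.0680 to 0.239.

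Ion channels split by gene. Of 18 channel genes tied to the firing of dopamine neurons 5 rose and 3 fell, with a median log2 fold change of 0.011. The shares over all genes tested were 5.93% higher and 6.54% lower. Kcnn3, the SK3 channel, rose by 1.78 ± 0.13, Kcnd3, a channel of the A-type current, by 1.94 ± 0.18, and Kcns3, a silent subunit, by 2.21 ± 0.25 (adjusted p = 1.02e-11, 1.24e-09 and 1.84e-07). Kcnj6, the GIRK2 channel, rose by 1.15 ± 0.18 and Hcn3 by 0.75 ± 0.17 (adjusted p = 3.06e-05 and 0.00326). Kcnj9, the GIRK3 channel, fell by 0.73 ± 0.14 on the log2 scale, with medians of 65.6 CPM in rich and 107 CPM in poor libraries (adjusted p = 0.000658). Cacna1c, a pore subunit of L-type calcium channels, fell by 0.38 ± 0.09 (adjusted p = 0.00453). Hcn3 missed the threshold in either strain alone, and Kcnj9 and Cacna1c in DBA libraries alone (adjusted p from 0.0946 to 0.427 over these fits).

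**Figure D3:**
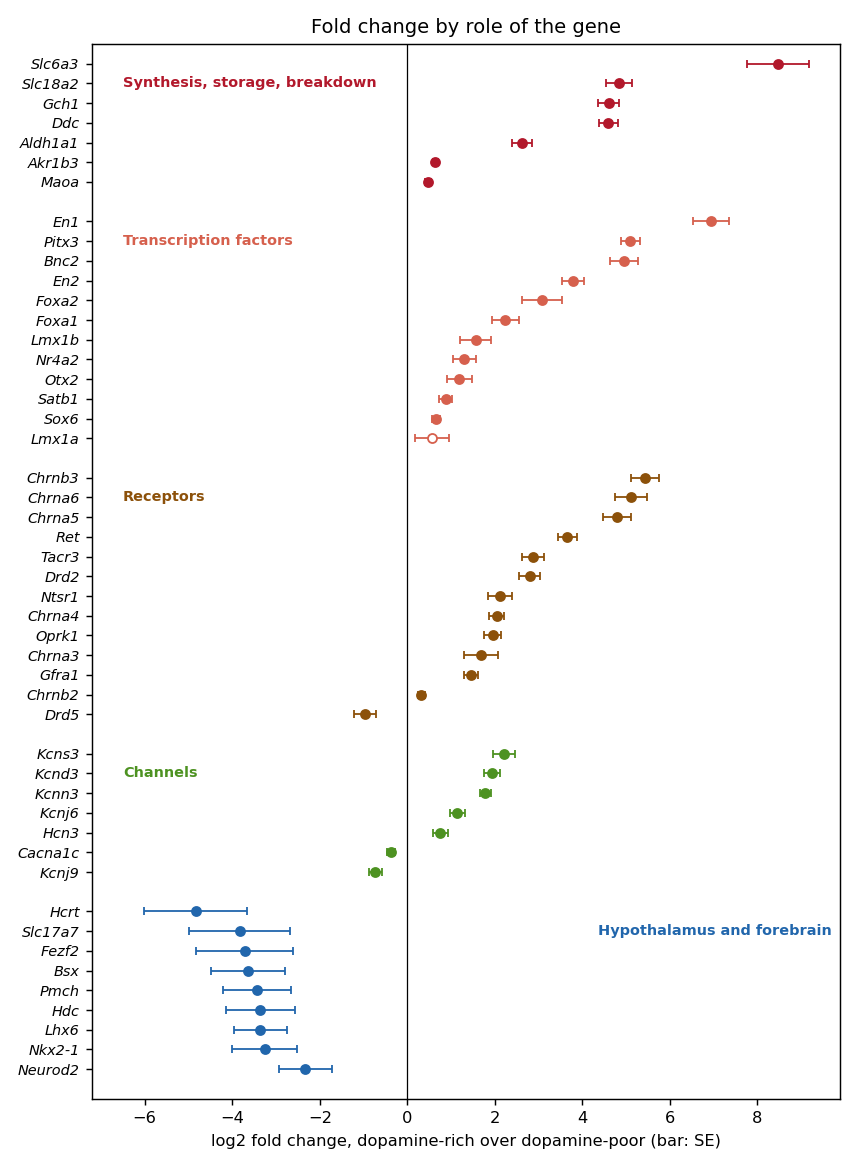
Log2 fold change of rich over poor libraries (horizontal, with 1 SE) for named genes grouped by role, filled where the adjusted p is below 0.05. Dopamine-neuron genes lie mostly to the right, up to 8.48 for Slc6a3, hypothalamic and forebrain genes to the left, down to -4.84 for Hcrt, and the open point is Lmx1a at 0.57 with an adjusted p of 0.389.

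Of 19 other marker genes of dopamine neurons 13 rose and none fell, with a median log2 fold change of 0.87, and 3 of the 6 uncalled members were negative. Slc10a4, a vesicular protein of aminergic neurons, had 61.5, 186 and 355 CPM in rich libraries, against 0.493, 2.15 and 11.03 CPM in poor libraries (6.33 ± 0.34, adjusted p = 1.62e-14). Sv2c, a synaptic vesicle protein, had 251, 549 and 1109 CPM in rich libraries, against 28.2, 96.1 and 186 CPM in poor libraries (2.96 ± 0.19, adjusted p = 3.51e-13). Dlk1, a membrane protein of the Notch family, and Cplx1, which controls vesicle fusion, rose by 2.05 ± 0.27 and 1.38 ± 0.31 (adjusted p = 3.05e-06 and 0.00263). Without C57 RCF female replicate 4 Cplx1 gave 1.98, and in C57 libraries alone 1.12 with an adjusted p of 0.203.

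Among the genes with the largest or most certain rises were several that belong to no dopamine list used here. Fam167a had 16.6, 44.1 and 70.5 CPM in rich libraries, against 1.37, 3.12 and 7.21 CPM in poor libraries (3.76 ± 0.20, adjusted p = 1.62e-14). Cnpy1, a gene of FGF signalling at the midbrain-hindbrain boundary in zebrafish, had 5.62, 24.9 and 39.96 CPM in rich libraries, against 0, 0.134 and 1.15 CPM in poor libraries (6.79 ± 0.40, adjusted p = 1.13e-13). Pax5, a factor of the same boundary, had 0.351, 32.9 and 47.2 CPM in rich libraries, against 0, 0.166 and 3.18 CPM in poor libraries (6.33 ± 0.49, adjusted p = 6.14e-11). Its lowest rich library fell within the range of the poor ones, and without C57 RCF female replicate 4 its log2 fold change was 7.36. Chrna2, a further nicotinic subunit, ranged from 0 to 76.7 CPM in rich libraries with a median of 11.2 CPM, and from 0 to 1.08 CPM in poor libraries (6.09 ± 0.75, adjusted p = 6.18e-07). It gave 5.10 without C57 control male replicate 3 and missed the threshold with limma voom (4.93, adjusted p = 0.113).

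Genes of other neurons moved in both directions. Of 17 GABA neuron genes 3 rose and 5 fell (median log2 fold change -0.20), and of 8 genes of midbrain glutamate neurons 1 rose and 2 fell (median 0.18). Over all genes tested 5.93% were higher and 6.54% lower. The GABA neuron genes that fell were Npy and the forebrain factors Dlx1, Dlx2, Dlx5 and Dlx6, the last 4 named after their values were seen. Tal1, Gata3 and Sox14, which specify GABA neurons of the midbrain and hindbrain, rose by 2.19 ± 0.36, 3.01 ± 0.58 and 2.49 ± 0.58 (adjusted p = 6.52e-05, 0.000602 and 0.00378). Gata3 is also a factor of serotonin neurons. Pou4f1, a factor of the red nucleus and the habenula, had medians of 5.66 CPM in rich and 0.497 CPM in poor libraries (2.85 ± 0.50, adjusted p = 0.000185). In all 4 the classes overlapped. Tal1, Gata3 and Sox14 missed the threshold in C57 libraries alone (adjusted p = 0.0561, 0.123 and 0.0631), and Sox14 and Pou4f1 in DBA libraries alone (adjusted p = 0.141 and 0.0992).

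Within the 12 rich libraries the dopamine genes kept nearly fixed proportions to Th. Slc6a3 ranged 6.02-fold between these libraries, yet its ratio to Th stayed between 1.27 and 2.04, a 1.60-fold range. The ratio of Slc10a4 to Th ranged 1.26-fold, that of Ddc 1.35-fold, that of En1 1.36-fold and that of Chrna6 1.38-fold. Nr4a2 behaved differently, ranging 1.74-fold in CPM while its ratio to Th ranged 3.21-fold. These are descriptions over 12 libraries whose CPM values share the same totals.

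Libraries between the limits, which the main fit did not use, held intermediate levels for most called genes. Their median lay between the class medians for 72.7% of higher calls and 74.4% of lower calls, against 43.8% of all genes tested. Called genes were selected for classes that lie apart, so their share is bound to be larger and is only a description. Median levels were 91.2 CPM for Slc6a3, 72.4 CPM for Ddc, 61.9 CPM for Slc18a2 and 18.2 CPM for Chrnb3, each between the medians of the 2 classes.

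Slc6a3, Slc18a2, Ddc, Gch1, En1 and Pitx3 were called higher in each strain alone, while fewer falls than rises passed the threshold in both strains. In DBA, with 2 rich and 13 poor libraries, 394 of 18370 genes tested were higher and 126 lower. In C57, with 10 rich and 8 poor libraries, 337 of 16612 were higher and 164 lower. Higher in both were 200 genes, which is 50.8% of the DBA list and 59.3% of the C57 list. Lower in both were 30, which is 23.8% of the DBA list and 18.3% of the C57 list. A shared call has to pass the threshold in both strains, so these shares depend on effect size and are only a description. Called falls were smaller than called rises in the main fit (median change 0.36 against 0.45 on the log2 scale). Pitx3 had log2 fold changes of 5.03 ± 0.30 in DBA and 5.10 ± 0.34 in C57, and Slc6a3 of 7.95 ± 1.27 in DBA and 9.35 ± 0.70 in C57. The term for a different class effect by strain called none of 16957 genes (585 at an unadjusted p below 0.05), and for Slc6a3 the difference was -1.397 ± 1.577 on the log2 scale. The terms by treatment and by sex called none either, with 429 and 375 genes at an unadjusted p below 0.05, and DESeq2 called none for any of the 3 terms. Without DBA control female replicate 3 the strain term called 1 gene.

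RCF was also compared with control among the rich libraries alone, 8 RCF libraries and 4 controls. No gene of 17084 passed the threshold (edgeR, 548 at an unadjusted p below 0.05; DESeq2 also called 0). The smallest p belonged to Spen, a transcriptional corepressor, which was higher in RCF by 0.28 ± 0.06 (adjusted p = 0.999). Slc6a3 ranged from 479 to 2401 CPM with a median of 1374 CPM in RCF libraries, against 752, 1272, 1738 and 2885 CPM in control libraries. The difference was -0.023 ± 0.436 on the log2 scale. Ddc ranged from 182 to 841 CPM in RCF libraries, against 295, 470.2, 635 and 1159 CPM in control libraries (-0.036 ± 0.438). The standard errors leave room for changes in either direction in these genes, and the libraries of RCF and control mice overlapped in both.

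Of the 12 lower genes with the smallest p, Cpne9 and Neto1 changed by more than 1 on the log2 scale and the other 10 by less. Shf, an adaptor protein, had 14.8, 18.04 and 22.55 CPM in rich libraries, against 22.56, 26.5 and 31.7 CPM in poor libraries (-0.54 ± 0.06, adjusted p = 2.68e-07). It was 1 of the 5 genes in which every rich library lay below every poor one. The others were B4galnt1, Unc5a, Fam49b and Mb21d2, with log2 fold changes of -0.31 ± 0.07, -0.60 ± 0.09, -0.38 ± 0.06 and -0.82 ± 0.14, named after their values were seen. Spock1, a proteoglycan of the brain matrix, had 135, 198 and 327 CPM in rich libraries, against 216, 343 and 573 CPM in poor libraries (-0.98 ± 0.13, adjusted p = 1.20e-06). Neto1, an auxiliary subunit of glutamate receptors, fell by 1.18 ± 0.16 on the log2 scale (adjusted p = 3.91e-06). Cpne9, a calcium-binding copine, had medians of 15.2 CPM in rich and 57.5 CPM in poor libraries (-2.60 ± 0.35, adjusted p = 3.40e-06). Sfmbt1, Rpusd1, Pde8b, Mamld1, Galnt16, Cited2, Slc35f3 and Stxbp5 completed the 12 lower genes with the smallest p, with log2 fold changes from -0.79 to -0.34. In DBA libraries alone Stxbp5 and Cpne9 missed the threshold (adjusted p = 0.0684 and 0.0933).

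Genes of the hypothalamus were among the largest falls. Of 15 hypothalamic genes that passed the filter, from a list of 21, 10 were lower in rich libraries and none higher, with a median log2 fold change of -2.47. Hcrt, the orexin precursor, ranged from 0 to 4.75 CPM in rich libraries with a median of 0.190 CPM, and from 0 to 104.6 CPM in poor libraries with a median of 3.04 CPM (-4.84 ± 1.17, adjusted p = 0.00579). Pmch, the precursor of melanin-concentrating hormone, ranged from 0.407 to 16.8 CPM in rich libraries and from 0.627 to 155 CPM in poor libraries (-3.43 ± 0.77, adjusted p = 0.00285). The classes overlapped at the low end in both, since some poor libraries also held little of either transcript. The list members Hdc, which makes histamine, Lhx6, and Nkx2-1, a factor of the ventral hypothalamus, had log2 fold changes from -3.36 to -3.26. Genes outside this list fell by as much, Bsx and Sfta3-ps by 3.64 ± 0.84 and 3.56 ± 0.77 on the log2 scale. Tac2, for neurokinin B, Calcr, the calcitonin receptor, and Npy, neuropeptide Y, also outside it, had -3.15 ± 0.68, -2.62 ± 0.59 and -2.64 ± 0.47.

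These calls were lost under several alternatives. With limma voom none of Hcrt, Pmch, Hdc, Lhx6, Nkx2-1, Bsx, Sfta3-ps, Tac2 and Calcr passed, with adjusted p between 0.0519 and 0.442. In DBA libraries alone none of the 9 passed, and Npy missed the threshold too (adjusted p = 0.0875). In C57 libraries alone Nkx2-1, Sfta3-ps, Hdc and Tac2 missed it (adjusted p = 0.145, 0.105, 0.0559 and 0.0556). With classes set by Slc6a3 in place of Th, Hdc and Hcrt missed it (adjusted p = 0.0520 and 0.0594). Hcrt gave -3.42 without C57 RCF male replicate 5 (adjusted p = 0.0530) and -6.07 without DBA RCF female replicate 5. The summed level of the 21 genes ran from 22.8 to 128 CPM in rich libraries and from 7.68 to 609 CPM in poor libraries, and its part in the other differences was not tested.

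Forebrain glutamate neuron genes were lower for 5 of 18 tested members and higher for none (median log2 fold change -1.17). Their sum ran from 425 to 981 CPM in rich libraries and from 774 to 6090 CPM in poor libraries. Slc17a7 had medians of 5.80 CPM in rich and 15.4 CPM in poor libraries, and its log2 fold change of -3.83 ± 1.16 (adjusted p = 0.0261) rested on the libraries that stood apart. It was -0.87 without the 4 libraries at 400 CPM or more (adjusted p = 0.213) and -2.35 without C57 RCF female replicate 4 alone (adjusted p = 0.258). Most of that library's forebrain sum of 1332 CPM was Slc17a7 itself, at 973 CPM. Slc17a7 also missed the threshold without C57 control female replicate 3 (-3.57, adjusted p = 0.0502) or DBA control male replicate 3 (-3.71, adjusted p = 0.0595). Fezf2, a factor of deep cortical layers, fell by 3.72 ± 1.109 on the log2 scale (adjusted p = 0.0246), a call that ended without C57 control male replicate 3, DBA control male replicate 3 or C57 RCF male replicate 5 (-3.54, -3.45 and -3.37). Neurod2 fell by 2.33 ± 0.60 (adjusted p = 0.00935), and gave -1.79 without C57 RCF female replicate 4 (adjusted p = 0.0809) and -0.99 without the 4 libraries. In DBA alone none of these 3 passed, nor Fezf2 in C57 alone (adjusted p from 0.219 to 0.576). With limma voom none passed (adjusted p = 0.136, 0.191 and 0.0579). Without the 4 libraries the sum ran from 774 to 1254 CPM in the other 17 poor libraries, so it still overlapped that of the rich ones.

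**Figure D4:**
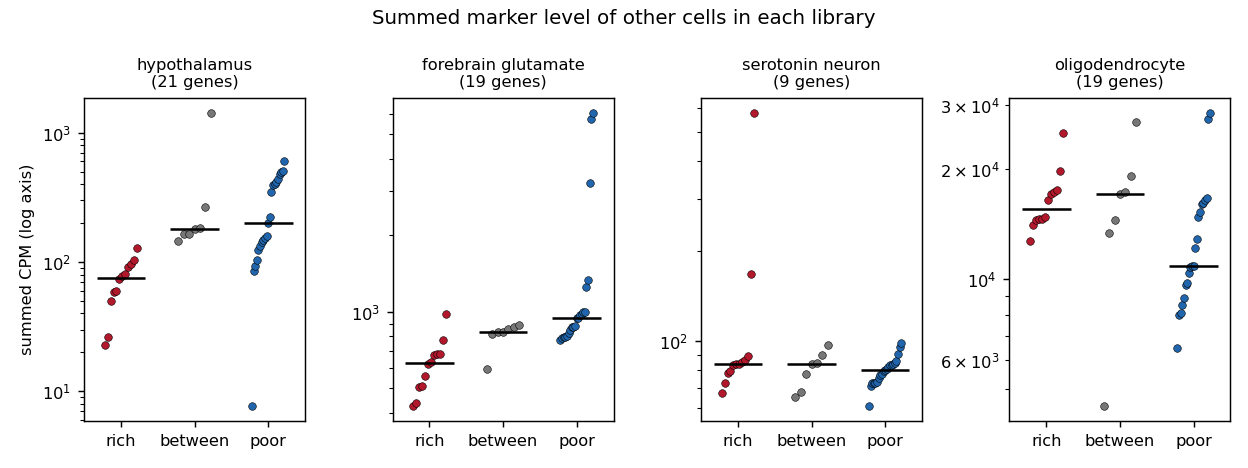
Summed level (CPM, log axis) of 4 marker lists in rich (12), between (7) and poor (21) libraries, 1 point per library and a line at the median. Hypothalamic sums reach 128 CPM in rich and 609 CPM in poor libraries, forebrain sums reach 981 CPM in rich and 6090 CPM in poor libraries, and serotonin sums reach 580.8 CPM in rich and 98.7 CPM in poor libraries.

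Of 13 GABA-A receptor genes tested 5 fell, none rose and 8 did not pass (median log2 fold change -0.36), against 6.54% lower calls over all genes. Gabra2 had medians of 29.6 CPM in rich and 108 CPM in poor libraries (-0.85 ± 0.13, adjusted p = 1.42e-05). Its medians were 72.0 CPM in rich and 127 CPM in poor DBA libraries, and 27.8 CPM in rich and 43.8 CPM in poor C57 libraries, and the classes differ in their share of each strain. Without covariates it gave -1.51. Gabra5 fell by 1.15 ± 0.20 on the log2 scale (adjusted p = 0.000142). Of 10 immediate early genes 8 fell, with a median of -0.92 and sums from 91.1 to 215 CPM in rich and 108 to 535 CPM in poor libraries. Egr1 had medians of 33.2 CPM in rich and 65.7 CPM in poor libraries (-1.33 ± 0.34, adjusted p = 0.00778), and Fos fell by 1.16 ± 0.32 (adjusted p = 0.0150). Fos missed the threshold without covariates (-0.78, adjusted p = 0.0993), with a replicate block (-0.82, adjusted p = 0.143), with classes set by Slc6a3 (-0.83, adjusted p = 0.0860) and in DBA alone, where Egr1 also missed it (adjusted p = 0.684 and 0.185). With forebrain and hypothalamic levels as terms Egr1 gave -0.84 and Gabra2 -0.50. Oprd1, the delta opioid receptor, fell by 1.63 ± 0.33 (adjusted p = 0.00109), and gave -1.04 without C57 RCF female replicate 4 and -0.74 without the 4 libraries high in Slc17a7, and had an adjusted p of 0.0594 in DBA alone.

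**Figure D5:**
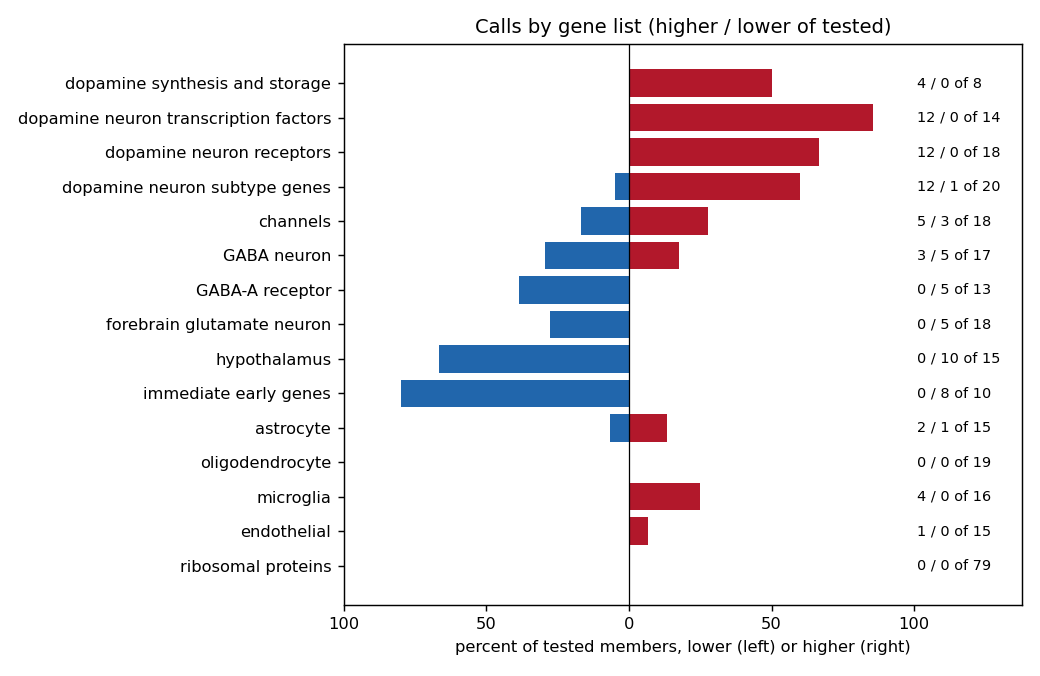
Percent of tested members of 15 gene lists called higher (right) or lower (left) in rich libraries, with the counts at the right edge. Of 14 dopamine neuron transcription factors 12 are higher, of 15 hypothalamic genes 10 are lower, and of 79 ribosomal protein genes none is called.

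Markers of glia and vessels were mostly uncalled. The counts below stand beside 5.93% higher and 6.54% lower calls over all genes tested. No oligodendrocyte gene of 19 was called (median log2 fold change 0.12), with sums from 12722 to 25193 CPM in rich libraries and from 6491 to 28566 CPM in poor libraries. Of 15 astrocyte genes 2 rose and 1 fell. Gfap, the intermediate filament of astrocytes, had 22.8, 244 and 577 CPM in rich libraries, against 10.5, 28.0 and 393 CPM in poor libraries (1.42 ± 0.47, adjusted p = 0.0459). Its call was lost in 26 of 33 omissions of 1 library and in either strain alone, and it gave 2.30 without C57 RCF female replicate 4 and 2.43 without the 4 libraries high in Slc17a7. Aqp4, the water channel of astrocyte endfeet, had medians of 304 CPM in rich and 144 CPM in poor libraries (0.77 ± 0.17, adjusted p = 0.00286), but missed the threshold in either strain alone (adjusted p = 0.0936 in DBA and 0.101 in C57). Of 15 endothelial genes 1 rose, Vwf, the von Willebrand factor, with medians of 38.7 CPM in rich and 16.2 CPM in poor libraries (0.84 ± 0.22, adjusted p = 0.00900). Its log2 fold change was -0.011 ± 0.216 in DBA and 1.09 ± 0.26 in C57, while the strain term called no gene. With forebrain and hypothalamic levels as terms none of these 3 passed, at 1.13, 0.36 and 0.45 (adjusted p = 0.192, 0.119 and 0.292). The part of these cells in the other differences was not tested. Microglial genes rose for 4 of 16 members with a median of 0.24, and all 16 had positive fold changes. The sum of the list ran from 383 to 598 CPM in rich and from 282 to 473 CPM in poor libraries. Of 10 oligodendrocyte precursor genes 2 rose, and of 10 meningeal genes 2 rose. Vcan, a matrix protein of oligodendrocyte precursors, rose by 0.41 ± 0.07 (adjusted p = 0.000192), and in C57 alone had an adjusted p of 0.0559. None of 79 ribosomal protein genes and none of 9 mitochondrially encoded genes was called, with 33 and 3 of them positive. Of 5 noradrenaline neuron genes none passed the filter on low counts.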

How the data were processed

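Single-end reads of 75 nt came from a stranded messenger RNA kit, per the labels' protocols. FastQC, bcl2fastq 2.20 and cutadapt 1.11 and the builds GRCm38 and mm10 are named in the submitters' processing notes, while these sources name no aligner, counter or strand setting. The authors deposited raw read counts for 55471 genes in 40 libraries. Gene symbols came from GENCODE, with the identifier's version for 54487 genes and ignoring it for 657, and 327 genes had none. Levels are CPM, counts over the library's total times 1000000. Classes were compared with the quasi-likelihood F test of edgeR 4.0.16 in R 4.3.3 (TMM scaling, filterByExpr by class, robust dispersion), with strain, treatment and sex as terms and an adjusted p below 0.05 as threshold. TMM factors ran from 0.907 to 1.05, and the median log2 fold change of all genes was -0.018. Shares of libraries were compared with Fisher's exact test. The procedure was tested on simulated data. Alternatives used limma 3.58.1, DESeq2 1.42.0, other limits, other covariates and leaving out libraries. Named genes were members of the dopamine lists, the 12 per direction with the smallest p, the 12 with the largest change at a mean of 5 CPM or more, up to 4 members of every other list, and the smallest p of the other tests. The members and lists were chosen with earlier results of these data known. No 2 libraries of a group agreed within sampling noise. Some single genes of the lists are not reported here.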

Additional observations from a re-analysis of the deposited data

Results flagged for a closer look

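Over 45 checks of marker sums in groups of 4 to 10 libraries, 9 had a library far from the others, and chance gives about 1 in 20 groups. The groups overlap, so some libraries were found more than once and the 9 cannot be weighed against that rate. What sets these libraries apart was not tested.

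Serotonin neuron genes summed to 580.8 CPM in C57 RCF female replicate 5, against 67.1 to 89.1 CPM in the other rich RCF libraries and 67.1 to 168 CPM in the other rich C57 libraries. The same library had 27.02 CPM of hindbrain genes, against 9.88 to 14.7 CPM in the other rich RCF libraries and 6.80 to 14.7 CPM in the other rich C57 libraries. Among rich controls C57 control male replicate 3 had 167.6 CPM of serotonin neuron genes, against 72.4 to 85.6 CPM in the others.

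Hindbrain genes summed to 247.3 CPM in C57 RCF female replicate 4, against 5.08 to 17.3 CPM in the other poor C57 libraries. Forebrain glutamate neuron genes summed to 981.2 CPM in C57 RCF male replicate 3, against 425 to 684.5 CPM in the other rich RCF libraries. Between the limits, C57 control male replicate 4 had 594.4 CPM of the forebrain genes, against 816 to 886 CPM in the others. Hypothalamic genes summed to 1429 CPM in DBA control male replicate 4, against 144 to 264 CPM in the other libraries between the limits.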

How the results depend on the processing

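The count of higher genes was 1005 and that of lower genes 1109. Without a filter on low counts 671 were lower, with classes set by Slc6a3 602, and with log2 Th as a continuous term over 40 libraries 1813. Without covariates 1731 were higher and 2220 lower, in C57 alone 337 and 164, and in DBA alone 394 and 126, where fewer libraries entered. Without the 4 libraries high in Slc17a7, an alternative chosen after seeing the data, the counts were 1906 and 1990. Leaving out 1 library gave 643 to 1408 higher and 604 to 1422 lower genes, and 0 to 1 genes for the strain term. The strain difference in the share of rich libraries was -42.1 points with limits of 400 and 25 CPM (Fisher's exact p = 0.0894). A single limit of 100 CPM gave -40 points for strain (Fisher's exact p = 0.0225) and a difference of 0 for treatment and for sex. With classes set by Slc6a3, 3 of 17 DBA and 11 of 19 C57 libraries were rich (Fisher's exact p = 0.0189). These p-values were not adjusted. With forebrain and hypothalamic levels as terms the log2 fold changes of Tac2, Bsx and Hcrt turned to 0.54, 0.55 and 0.72. For members of the hypothalamic list, such as Hcrt, that term holds the outcome itself, so this fit does not test how stable their falls are. Tac2 and Bsx are not in that list. In DBA alone Vwf gave -0.01118. With log2 Th as a continuous term Lmx1a passed the threshold (0.17 per log2 unit of Th, adjusted p = 0.049), and Cplx1, Pmch and Hcrt missed it. The causes were not tested. Same-numbered libraries did not deviate together (mean correlation 0.0031 over 140 pairs), and 9 of 40 libraries were closest to their own number. With a replicate block 786 genes were higher and 839 lower, and 1 gene was called for RCF within rich libraries. The strand setting of the counts limits what can be said of antisense and overlapping genes.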

Other observations

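Residual Th in poor libraries was often not matched by the dopamine transporter. In 17 of the 21 poor libraries Slc6a3 was below 10 CPM, with Th from 0.655 to 38.4 CPM, Ddc from 13.0 to 38.4 CPM and Slc18a2 from 3.25 to 45.8 CPM. In the other 4 Slc6a3 ran from 23.6 to 48.9 CPM and Th from 28.7 to 41.6 CPM. Between the limits, DBA control male replicate 4 had 107 CPM of Th with 3.96 CPM of Slc6a3, 298 CPM of Hcrt and 925 CPM of Pmch. Th is also made by hypothalamic neurons that lack the transporter, and their part in these values was not tested.

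Downstream of Slc10a4 on chromosome 5 of GRCm38 (73006883 to 73012955, plus strand) lie Gm15847 (73013528 to 73017236) and Gm42668 (73015199 to 73017685) on the same strand. Their log2 fold changes were 6.27 and 7.21, beside 6.33 for Slc10a4. Reads running past the end of Slc10a4 and separate transcripts were not told apart.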
